A study of Mus musculus with 15 samples.

Results

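The 10 genes described here belong to insulin and insulin-like growth factor (IGF) signalling and were chosen by symbol from the 47069 genes of the deposited table: the ligand Igf1, the receptors Insr and Igf1r, the adaptors Irs1 and Irs2, and the binding proteins Igfbp1, Igfbp3, Igfbp4, Igfbp5 and Igfbp7. All 10 were found. Which of their values led to the choice is not recorded, so their levels by tissue, set and replicate number are given as a description: no p-value is printed for a member, and counts of members past a threshold support nothing. RNA-Seq was run on 12 single proximal tubules isolated by microdissection and labelled PTS2 (1 library each) and on whole kidney (3 libraries). All came from male C57BL/6 mice aged 2 months, and no treatment or genetic change is named for any group. The tubules fall into 3 sets, m1, m2 and m3, with 4 libraries numbered 1 to 4 in each, and the labels explain neither the sets nor the numbers. Nothing says that libraries came from separate animals, so p-values measure only the spread between these libraries, which may be technical.

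Values are TPM, a relative transcript abundance scaled by transcript length that sums to the same total in each library and keeps no record of depth. Between 10983 and 11511 genes reached 1 TPM in a tubule, against 13236 to 13328 in whole kidney. Summed markers shared by all proximal segments reached 11231 to 16560 TPM in tubules and 9275 to 10244 TPM in whole kidney. The S2 transporters Slc22a6 and Slc22a8 summed to 368 to 1149 TPM in tubules and 719 to 781 TPM in kidney, but they differed: Slc22a6 averaged 585 ± 228 and 486 ± 44.1 TPM, while Slc22a8 averaged 68.0 ± 42.2 and 272 ± 11.3 TPM (SD, n = 12 and 3), with all 12 tubules below every kidney library. The 3 markers of S3, the last proximal segment, summed to 1937 to 3092 TPM in tubules and 1023 to 1463 TPM in kidney, and every tubule was above every kidney library. Thick ascending limb markers summed to 4.75 to 55.8 TPM in 11 tubules, and to 1441 TPM in set m3 number 3, against 2425 to 2723 TPM in kidney. In whole kidney, fewer cells of a type and less RNA per cell cannot be told apart.

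Insulin and IGF1 bind related tyrosine kinase receptors, which phosphorylate the IRS adaptors and so recruit PI3-kinase and activate AKT. AKT then keeps FOXO transcription factors out of the nucleus and switches on mTOR complex 1, and FOXO targets such as Igfbp1, Irs2 and the gluconeogenic enzymes are lowered by insulin in liver. The IGFBPs bind IGFs outside cells and set how much reaches the receptors, and the proximal tubule is the site of gluconeogenesis in the kidney.

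The ligand Igf1, whose product acts through Igf1r, was nearly absent from tubules. Its levels over the 12 tubules ran from 0.04 TPM through a median of 0.28 to 0.90 TPM, and the kidney libraries had 5.92, 5.74 and 5.44 TPM. Every tubule lay below every kidney library, and the tubule mean of 0.320 ± 0.239 TPM (SD, n = 12) was 5.61% of the kidney mean of 5.70 ± 0.242 TPM (SD, n = 3). The highest tubule, set m3 number 1, and the lowest, set m3 number 4, belonged to the same set. Igf1 lies on the plus strand at chr10:87858265-87937042 (GRCm38, GENCODE M21), and its antisense partner Igf1os, whose reads a kit that does not mark strand cannot separate, averaged 0.0650 TPM in tubules and 0.0133 TPM in kidney.

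Both receptors were read in every library, with Insr at the higher level. Insr, the insulin receptor (chr8:3122061-3279617, minus strand), stood at 25.07, 24.34, 16.37 and 25.03 TPM in set m1, at 22.66, 17.68, 19.21 and 22.53 TPM in m2, and at 18.37, 13.74, 16.26 and 18.60 TPM in m3. Kidney libraries had 22.34, 25.08 and 22.72 TPM, of which 2 lay within the tubule range and 25.08 TPM just above the highest tubule. The set means of 22.7 ± 4.23, 20.5 ± 2.48 and 16.7 ± 2.26 TPM (SD, n = 4 each) overlapped between neighbours in that order. Igf1r, the IGF1 receptor (chr7:67952827-68233668, plus strand), ran from 3.06 TPM through a median of 4.55 to 6.09 TPM in tubules, against 5.90, 8.96 and 8.39 TPM in kidney. In counts, 11 of 12 tubules lay below the lowest kidney library, and set m2 number 1 lay above it. Its set means were 3.70 ± 0.676, 5.18 ± 0.890 and 4.77 ± 0.627 TPM (SD, n = 4 each), and neighbours in the order m1, m3, m2 overlapped. The ratio of Insr to Igf1r was 6.18 ± 0.987 in m1, 4.08 ± 1.07 in m2 and 3.51 ± 0.125 in m3 (SD, n = 4 each), with 3.10 ± 0.598 in kidney (SD, n = 3). All 4 libraries of m1 had ratios from 5.35 to 7.51, above every m3 library, while m1 and m2 overlapped.

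Of the 2 adaptors, the tubules held Irs2 and almost no Irs1. Irs1 (chr1:82233101-82291416, minus strand) ran from 0.00 TPM through a median of 0.015 to 0.11 TPM in tubules, and stood at 0.87, 0.91 and 1.21 TPM in kidney. Every tubule was below every kidney library, and the tubule mean was 2.42% of the kidney mean. The protein-coding gene Gm9747 overlaps it on the opposite strand, with 0.10 TPM in tubules and 3.81 TPM in kidney, and how the reads were divided is not given in the sources used here. Irs2 (chr8:10984681-11008458, minus strand) had 6.18, 2.75, 3.42 and 4.63 TPM in set m1, 14.15, 10.16, 11.20 and 9.86 TPM in m2, and 23.94, 18.98, 22.36 and 22.79 TPM in m3. No library of one set overlapped another, and the order was m1, m2, m3. The means were 4.25 ± 1.51, 11.3 ± 1.96 and 22.0 ± 2.13 TPM (SD, n = 4 each), a 5.19-fold span between m1 and m3. The kidney libraries had 6.53, 19.70 and 36.08 TPM, a wide spread that lay above all 4 libraries of m1 and reached past the highest tubule.

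**Figure D1:**
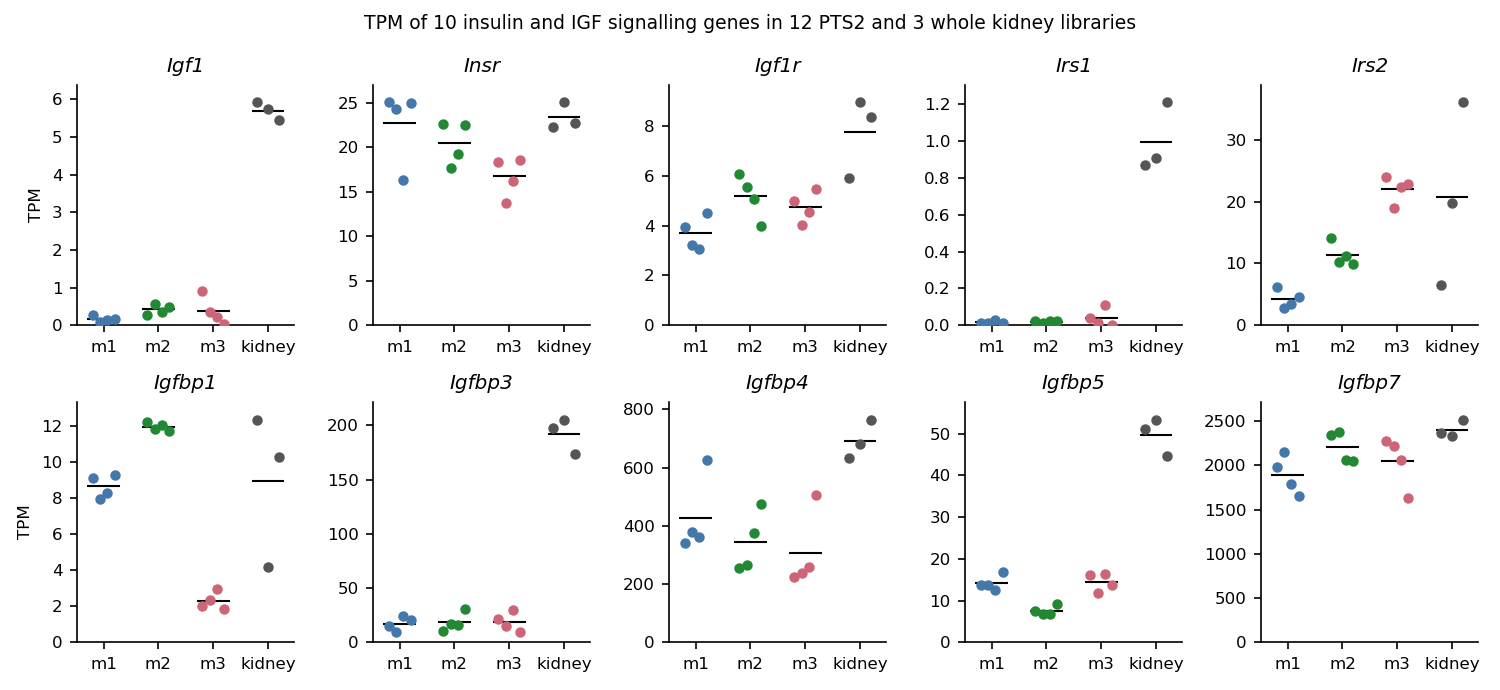
TPM of the 10 genes (vertical axes, linear, from 0) in each library of the 3 PTS2 sets and of whole kidney (horizontal positions), with 1 point a library and a bar at each group's mean. Irs2 climbs from 4.25 to 22.0 TPM across the set means, Igfbp1 is lowest in m3 at 2.30 TPM, and Igf1, Irs1, Igfbp3, Igfbp4 and Igfbp5 have every tubule below every kidney library.

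Igfbp1, a binding protein that insulin represses in liver, followed a different order of sets. It had 9.12, 7.98, 8.31 and 9.29 TPM in m1, 12.23, 11.84, 12.09 and 11.76 TPM in m2, and 2.03, 2.35, 2.98 and 1.83 TPM in m3. Again no 2 sets overlapped, and the means were 8.68 ± 0.630, 11.98 ± 0.218 and 2.30 ± 0.503 TPM (SD, n = 4 each). Set m2 was 5.21-fold and m1 3.78-fold above m3. Kidney libraries had 12.37, 4.19 and 10.30 TPM, and the kidney library lowest in Irs2 was the highest in Igfbp1. The ratio of Irs2 to Igfbp1 was 0.345 to 0.678 in m1, 0.838 to 1.16 in m2 and 7.50 to 12.5 in m3, with 0.528, 4.70 and 3.50 in the kidney libraries.

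**Figure D2:**
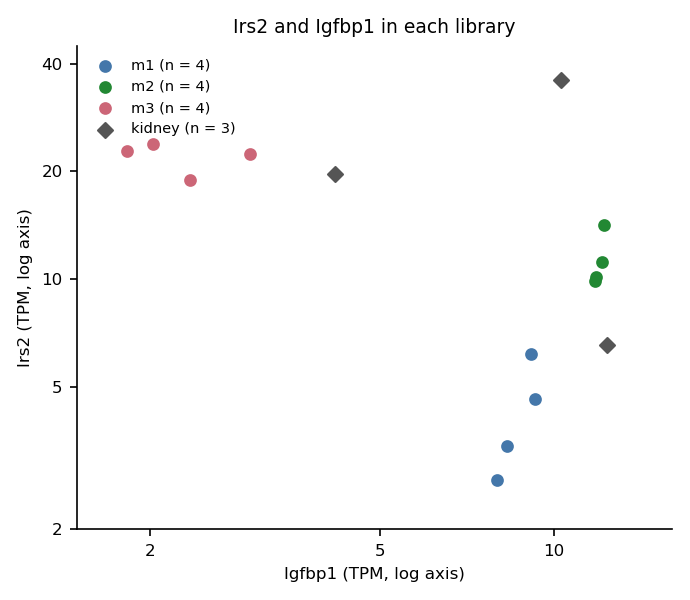
Irs2 TPM (vertical axis) against Igfbp1 TPM (horizontal axis), both axes logarithmic, 1 point a library, coloured by PTS2 set or whole kidney. The 4 libraries of each set lie together and apart from the other sets, with m3 at 18.98 to 23.94 TPM of Irs2 and 1.83 to 2.98 TPM of Igfbp1, and the kidney libraries are spread, at 6.53 to 36.08 TPM of Irs2 and 4.19 to 12.37 TPM of Igfbp1.

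The promoters of Irs2, Igfbp1 and Irs1 are shown because they were the members, of 9 matched to RefSeq (GRCm38.p6), whose 250 bases before the start hold the letters CAAAACAA on either strand, a form of the insulin response element described in the Igfbp1 promoter. Capitals mark that motif, or its reverse complement TTGTTTTG, and the E-box CACGTG, the core bound by basic helix-loop-helix factors. Sequences run 5′ to 3′ on the gene's strand, and the last base is the one before the start. They lie at chr8:11008930-11009179 (minus strand) for Irs2, chr11:7197537-7197786 (plus strand) for Igfbp1 and chr1:82291440-82291689 (minus strand) for Irs1.
Irs2: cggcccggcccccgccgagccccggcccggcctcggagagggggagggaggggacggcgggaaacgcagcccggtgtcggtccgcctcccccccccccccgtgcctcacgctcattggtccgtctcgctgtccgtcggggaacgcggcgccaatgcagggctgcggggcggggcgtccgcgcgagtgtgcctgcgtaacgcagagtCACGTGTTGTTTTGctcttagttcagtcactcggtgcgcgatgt
Igfbp1: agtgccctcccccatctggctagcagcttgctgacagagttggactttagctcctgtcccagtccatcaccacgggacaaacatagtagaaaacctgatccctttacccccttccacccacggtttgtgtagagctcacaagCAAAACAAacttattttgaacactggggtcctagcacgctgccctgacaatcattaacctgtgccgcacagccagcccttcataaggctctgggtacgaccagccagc
Irs1: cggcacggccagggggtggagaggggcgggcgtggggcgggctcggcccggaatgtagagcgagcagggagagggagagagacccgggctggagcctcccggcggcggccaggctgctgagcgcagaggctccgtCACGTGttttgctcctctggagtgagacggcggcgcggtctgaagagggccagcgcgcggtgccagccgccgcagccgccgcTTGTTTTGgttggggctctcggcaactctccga
In Irs2 the E-box at 44 to 39 bases before the start ends next to TTGTTTTG at 38 to 31 bases, with no shared base. Igfbp1 holds CAAAACAA at 108 to 101 bases before its start, and Irs1 holds TTGTTTTG at 33 to 26 bases and CACGTG at 115 to 110 bases. Among 32851 mouse promoter windows of 250 bases, 2.21% hold CAAAACAA on either strand and 6.02% hold CACGTG. Of the other motifs searched on both strands, TATAAA was found in 1 of the 9 windows, that of Igfbp4, and in 12.4% of all windows, while TTCNNNGAA (7.02% of all windows) and GTAAACA (3.17%) were in none of the 9. The motifs were chosen after the values were seen, and a match describes letters, not binding.

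Among the other binding proteins, Igfbp7 (chr5:77349240-77408041, minus strand), a secreted protein that binds IGFs weakly, was by far the most abundant member. Tubules ran from 1627 TPM through a median of 2060 to 2380 TPM, which ranked 63 among genes by mean, and the kidney libraries had 2371, 2327 and 2518 TPM. Of the tubules, 10 of 12 were below the lowest kidney library, and the tubule mean was 2050 ± 251 TPM (SD, n = 12) against 2405 ± 99.8 TPM (SD, n = 3). Set means were 1895 ± 217, 2207 ± 180 and 2048 ± 295 TPM (SD, n = 4 each), and neighbouring sets overlapped. Polr2b overlaps it on the opposite strand at 22.7 TPM in tubules.

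Igfbp4 (chr11:99041244-99054392, plus strand), which holds IGFs away from their receptor, was next in abundance. It had 340.51, 378.92, 362.19 and 627.29 TPM in set m1, 257.03, 266.11, 377.39 and 473.97 TPM in m2, and 225.50, 237.41, 259.42 and 507.74 TPM in m3. Kidney libraries had 634.04, 679.79 and 765.11 TPM, all above every tubule. The tubule mean of 359 ± 124 TPM (SD, n = 12) was 51.9% of the kidney mean of 693 ± 66.5 TPM (SD, n = 3).

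Igfbp3, the main IGF carrier in plasma, had the largest shortfall in TPM ratio among the binding proteins that are members. Over the tubules it ran from 9.45 TPM through a median of 16.3 to 31.10 TPM, against 197.94, 205.43 and 174.09 TPM in kidney, and the groups did not overlap. The tubule mean of 18.3 ± 7.32 TPM (SD, n = 12) was 9.51% of the kidney mean of 192 ± 16.4 TPM (SD, n = 3). Set means of 17.3 ± 6.47, 18.6 ± 8.72 and 18.9 ± 8.76 TPM (SD, n = 4 each) overlapped, and the spread lay within sets. Igfbp3 (chr11:7206086-7213923, minus strand) and Igfbp1 (chr11:7197782-7202546, plus strand) are neighbours with 3539 bases between their ends. The sets were apart for Igfbp1 and overlapped for Igfbp3, which showed no order of sets. Igfbp5 (chr1:72857932-72874884, minus strand), which also binds matrix, had 13.65, 13.77, 12.66 and 16.92 TPM in m1, 7.45, 6.90, 6.85 and 9.17 TPM in m2, and 16.05, 11.74, 16.42 and 13.67 TPM in m3. All 4 libraries of m2 lay below every library of m1 and m3, which overlapped, and the kidney libraries were higher at 51.11, 53.36 and 44.72 TPM. Its tubule mean of 12.1 ± 3.70 TPM (SD, n = 12) was 24.3% of the kidney mean.

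Added together, the 5 binding proteins came to 2447 ± 166 TPM in tubules (SD, n = 12) and 3350 ± 141 TPM in kidney (SD, n = 3), and no tubule reached the kidney range. Igfbp7 made up 83.5% ± 5.90 of that sum in tubules and 71.8% ± 0.718 in kidney (SD, n = 12 and 3). Igfbp4 made up 14.9% ± 5.76 in tubules, from 8.86% to 26.9%, and 20.7% ± 1.19 in kidney.

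Markers of other cells stood beside these values. Endothelial markers (8 genes, each with every tubule below every kidney library and none at 0 in all tubules) summed to 23.8 to 93.9 TPM in tubules and 305.0 to 318.5 TPM in kidney, 15.3% by mean. Fibroblast markers (6 genes, all 6 below kidney in every tubule) summed to 0.89 to 5.37 TPM and 81.4 to 102 TPM, or 2.79%. Pericyte and smooth muscle markers (5 genes, all 5 below) summed to 0.04 to 4.01 TPM and 81.3 to 95.7 TPM, and macrophage markers (6 genes, 5 of them below) to 28.6 to 82.4 TPM and 119 to 157 TPM. None of the fibroblast, pericyte or macrophage markers was at 0 in every tubule. The tubule levels of Igf1, Igfbp3 and Igfbp5 as a share of kidney, 5.61%, 9.51% and 24.3%, lay among these shares. Such shares were not particular to these lists. Lymphocyte markers stood at 8.18%, mesangial at 34.9%, and thick ascending limb, with set m3 number 3 far above the rest, at 5.33%. Podocyte, principal cell, intercalated cell, distal convoluted tubule, connecting tubule, urothelial and S1 lists stood at 3.00% or less. The part of any such cells in the 3 genes was not tested.

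On the scale of log2(TPM + 1), fitted with limma over all genes, the tubule minus kidney differences of the members were as follows. Igfbp3 stood at -3.42 ± 0.31 (SE), Igf1 at -2.36 ± 0.16, Igfbp5 at -2.01 ± 0.23, Igfbp4 at -1.01 ± 0.26 and Igf1r at -0.66 ± 0.17. Igf1 averaged under 1 TPM in tubules and entered the fit only through kidney. These 5 of the 9 members fitted were past an adjusted p of 0.05, all lower, or 4 of 8 with Igf1 left out. Of the 12039 genes tested 51.2% were past it, 41.5% lower and 9.68% higher in tubules. Of genes at 1 TPM or more in tubules, 4260 of 11252 were lower. Every tubule was below every kidney library for 4 of these 9, against 32.0% of genes tested, and for Irs1, which was not tested. As the choice of members may have used these values, nothing is read from the counts. Irs2 at -0.67 ± 0.55, Igfbp1 at -0.31 ± 0.48, Insr at -0.24 ± 0.15 and Igfbp7 at -0.24 ± 0.11 were not past it, and Irs1 lay under the filter of a mean of 1 TPM. Igf1 is understated by the pseudocount and stood at -3.99 with a pseudocount of 0.1. Scaling set the level of all such differences: the median of all genes was -0.27 as deposited, 0.00 after median-of-ratios rescaling and 0.15 after quantile normalization. As deposited, Insr and Igfbp7 lay near that median, and their signs turned under median-of-ratios rescaling, to 0.04 and 0.05. Under quantile normalization Insr, Igfbp1 and Igf1r turned to 0.12, 0.34 and 0.03, while Igfbp7 stood at -0.36.

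**Figure D3:**
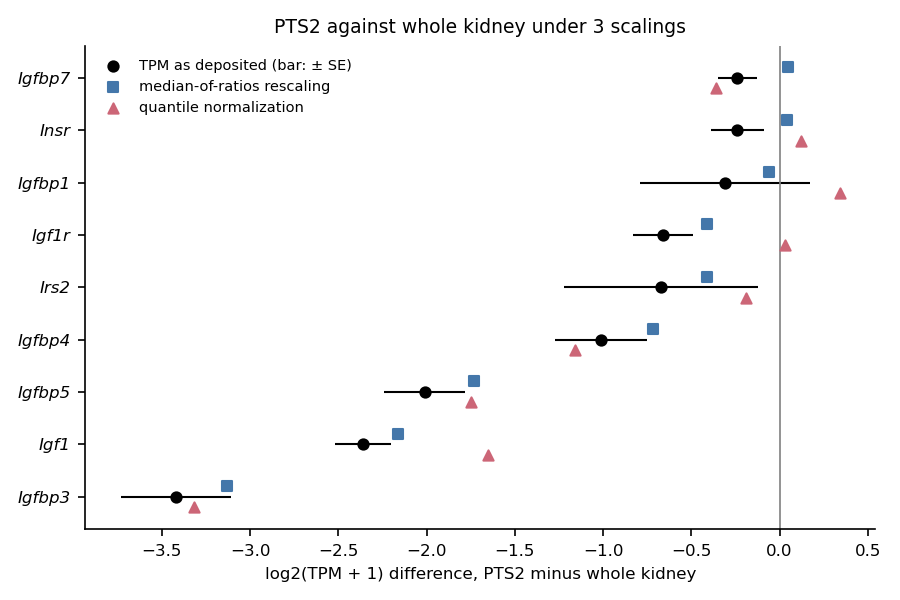
Tubule minus kidney difference in log2(TPM + 1) for the 9 members fitted (horizontal axis) with bars of 1 SE, as deposited and under the other scalings. Igfbp3, Igf1, Igfbp5 and Igfbp4 lie left of 0 under each scaling shown, at -3.42, -2.36, -2.01 and -1.01 as deposited, while Insr, Igfbp7, Igfbp1 and Igf1r cross 0 under at least 1.

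Among the 3 sets, 3 of the 8 members fitted were past the adjusted p of the F test, Irs2, Igfbp1 and Igfbp5, where 3.02% of 11300 genes were. Irs2 and Igfbp1 had no overlap between any 2 sets, which held for 0.69% of genes. Here too the choice may have used the values, and nothing is read from these shares. On the log2(TPM + 1) scale, m3 minus m1 was 2.17 ± 0.18 (SE) for Irs2, -1.56 ± 0.12 for Igfbp1 and 0.02 ± 0.13 for Igfbp5, and m2 minus m1 was 1.27, 0.43 and -0.83. The 5 other members had contrasts between -0.51 (Igfbp4, m3 minus m1) and 0.40 (Igf1r, m2 minus m1). The endothelial marker sum ran from 30.1 to 54.0 TPM in m1, 26.1 to 47.8 TPM in m2 and 23.8 to 93.9 TPM in m3, so the sets overlapped. The S3 marker sum ran from 1937 to 2569 TPM in m1, 2291 to 3069 TPM in m2 and 2674 to 3092 TPM in m3. For S3, m1 lay below m3 without overlap, and m2 overlapped both. The part of segment or cell content in the set differences was not tested.

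The replicate numbers are not named in the rule that chose the members, but they divide the same tubule values, so they too are given as a description. Igfbp4 averaged 274 TPM over the 3 sets at number 1, 294 TPM at number 2, 333.0 TPM at number 3 and 536 TPM at number 4. Number 4 was the highest library of its set in all 3 sets, a pattern found in 4.79% of the genes tested. With the set as a term, number 4 exceeded the other numbers by 0.85 ± 0.09 (SE) on the log2(TPM + 1) scale. Igfbp4 was the 1 of 8 members past the threshold of the limma F test over the numbers, where 2.71% of 11300 genes were, and nothing is read from that share. It was not past it with no filter on low values or with no set term.

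Igfbp7 stood the other way, lowest at number 4 in all 3 sets (4.49% of genes), by -0.27 ± 0.06, and was not past the threshold. The share of Igfbp4 in the summed binding proteins was 22.9% at number 4 and 11.0%, 11.4% and 14.2% at numbers 1, 2 and 3. The S2 transporters were also highest at number 4 in each set. Their sum was 1149, 892 and 1024 TPM there, against 368 to 762 TPM in the other 9 libraries. The principal cell marker sum was highest at number 4 in each set too, at 50.5, 21.6 and 30.3 TPM. The macrophage sum was lowest there in each set, at 28.6, 39.3 and 42.2 TPM. So was the distal convoluted tubule sum, which was at most 0.55 TPM in any tubule. The part of any of these in the Igfbp4 and Igfbp7 differences was not tested.

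**Figure D4:**
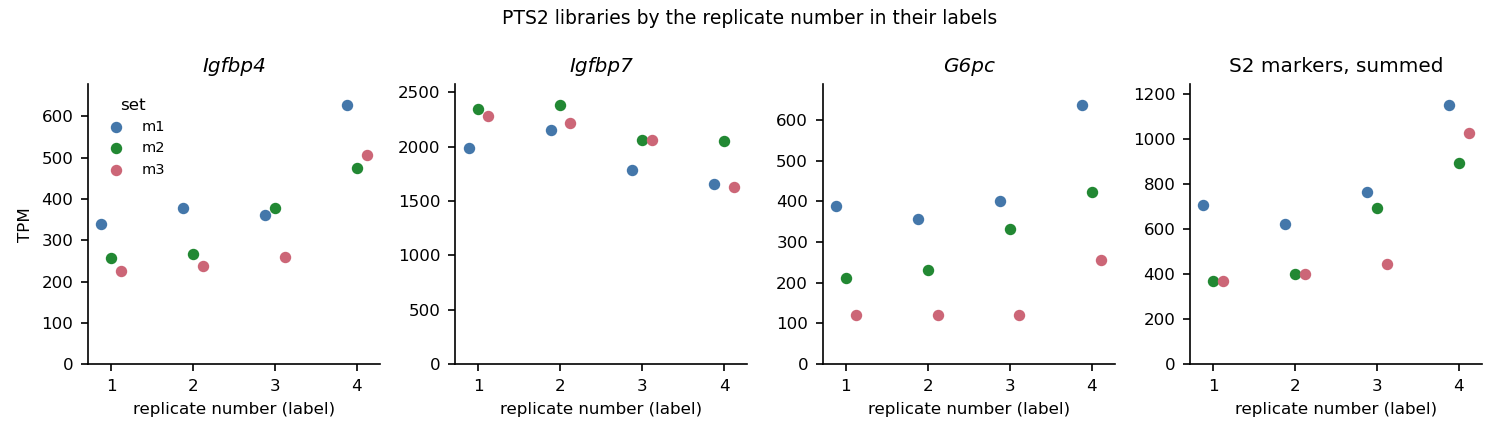
TPM (vertical axes, linear, from 0) by replicate number from 1 to 4 (horizontal axis, numbers as labelled, with no stated order) for genes of the replicate-number comparison, 1 point a library, coloured by set. Igfbp4 is highest at number 4 in each set, at 627, 474 and 508 TPM.

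The rest of the pathway was read from 65 other genes, listed by role. Of the 46 tested between tubules and kidney, 29 were lower in tubules, 2 were higher and 15 did not pass, where 41.5% of all 12039 genes tested were lower and 9.68% higher. Of the 29, Insrr, Grb14, Pik3r3 and Ddit4 averaged under 1 TPM in tubules and passed the filter only through kidney, so no p is given for them, and 25 of the 42 others were lower. The median difference over the 46, these genes included, was -0.53 beside -0.27 over all genes tested, of which 787 also averaged under 1 TPM in tubules. After median-of-ratios rescaling 19 of the 46 were lower and 3 higher, where 2767 of all 11955 genes tested were lower and 2827 higher. After quantile normalization 11 were lower and 7 higher, where 2266 of 12039 were lower and 4096 higher. The split thus depends on the scale. Of the 42 at 1 TPM or more in tubules, 25, 15 and 8 were lower as deposited and under those scalings. Over all genes at that level the counts were 4260 of 11252, 2138 of 11257 and 1657 of 11252. No ligand was tested: Igf2 averaged 0.313 TPM in kidney, and Ins1 and Ins2 were listed at 0 in all kidney libraries. In tubules Igf2 reached at most 0.01 TPM and Ins2 was listed at 0. Ins1 was above 0 in 5 of 12 tubules, at up to 0.11 TPM. Of the receptors, Insrr, an alkali-sensing relative of the insulin receptor, averaged 0.0142 TPM in tubules and 7.60 ± 1.10 TPM in kidney (SD, n = 3), a log2 difference of -3.08 ± 0.11. Pear1, which overlaps Insrr on the opposite strand, averaged 1.27 TPM in tubules and 12.9 TPM in kidney. The receptor Igf2r, which clears IGF2, did not pass, at 9.29 ± 1.97 TPM and 12.3 ± 1.05 TPM. The binding proteins Igfbp2 and Igfbp6 were not tested. Igfbp2 averaged 0.00417 TPM in tubules and 4.90 TPM in kidney, and Igfbp6 0.0 and 1.23 TPM.

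Among receptor adaptors 6 of 7 tested were lower as deposited, or 5 of 6 without Grb14, which averaged under 1 TPM in tubules. Without Grb14, 3 were lower after median-of-ratios rescaling and 1 after quantile normalization. The counts over all genes at 1 TPM or more in tubules are those given above. Grb14, which binds and inhibits the active insulin receptor, averaged 0.668 ± 0.712 TPM in tubules (SD, n = 12) and 19.7 ± 0.106 TPM in kidney (SD, n = 3), a log2 difference of -3.71 ± 0.27 (SE). Its highest tubule, at 2.80 TPM, was set m3 number 3, the library with 1441 TPM of thick ascending limb markers. Among PI3-kinase and AKT genes 4 of 8 were lower as deposited. Without Pik3r3, which averaged under 1 TPM in tubules, 3 of 7 were lower (3 and 2 under those scalings). Pik3r3, a regulatory subunit, stood at 0.236 ± 0.201 and 6.56 ± 1.24 TPM (-2.62 ± 0.16). The 6 brakes tested were lower as deposited, 4 and 3 of them under the other scalings, among them the receptor phosphatase Ptprf at 15.02 ± 2.85 and 36.99 ± 0.237 TPM (-1.27 ± 0.16, adjusted p = 3.67e-06). The 4 GSK3 and FOXO genes tested were lower as deposited, 2 after median-of-ratios rescaling and none after quantile normalization. In the mTOR branch 7 of 11 were lower as deposited. Without Ddit4, which averaged under 1 TPM in tubules, 6 of 10 were lower, and 2 and 1 under those scalings.

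Htra1, a secreted protease that cleaves IGF binding proteins, was higher in tubules, at 167 ± 12.7 TPM (SD, n = 12) against 122 ± 3.80 TPM (SD, n = 3), a log2 difference of 0.45 ± 0.07 (limma, adjusted p = 6.53e-05). The kinase Mtor was the other higher gene, at 78.7 ± 27.0 and 45.2 ± 12.6 TPM (0.74 ± 0.27, limma, adjusted p = 0.0291). Its groups overlapped, with 8 of 12 tubules above the highest kidney library. With no filter on low values, and without kidney library 1 or 3, only 1 pathway gene was called higher. Htra1 kept its call in each of these fits, so the call of Mtor was lost. Among 6 insulin target genes tested, 1 was lower: Ppargc1a, a coactivator of gluconeogenic and mitochondrial genes, at 10.4 ± 2.76 and 50.5 ± 1.63 TPM (-2.22 ± 0.21, adjusted p = 1.46e-07). Pck1, which catalyses the committed step of gluconeogenesis, averaged 1859 ± 289 TPM in tubules and 1935 ± 812 TPM in kidney and did not pass.

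**Figure D5:**
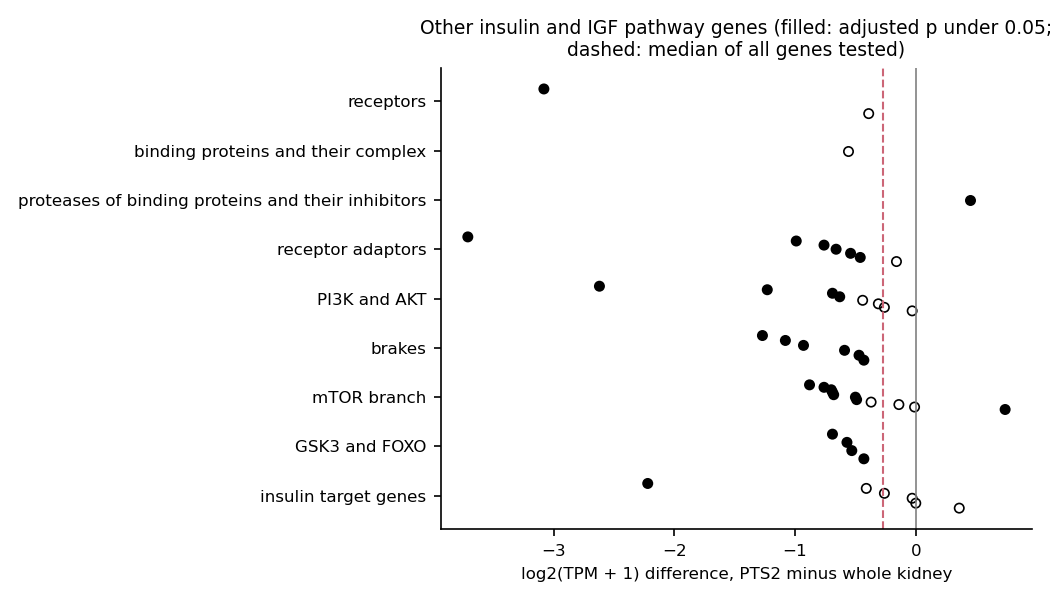
Tubule minus kidney difference in log2(TPM + 1) (horizontal axis) for the 46 pathway genes tested, grouped by role (vertical axis), with genes past the threshold marked apart from the rest. Most points lie left of 0, with Grb14 at -3.71 farthest on this scale, an order that depends on the pseudocount. Mtor at 0.74 and Htra1 at 0.45 are past the threshold on the right.

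Among the sets, 5 of 42 pathway genes (11.9%) passed the limma F test, where 3.02% of all genes did. In each of the 5 the highest and the lowest set did not overlap. The share of all called genes for which this held is not given, so nothing is read from it. G6pc, the catalytic subunit of glucose-6-phosphatase and a FOXO target that insulin lowers in liver, averaged 446 ± 129, 299.6 ± 97.4 and 155 ± 67.4 TPM in sets m1, m2 and m3 (SD over 4 libraries), with m3 minus m1 at -1.56 ± 0.28 (SE, F test adjusted p = 0.0179). Pdk4, which inhibits pyruvate dehydrogenase, had 9.80 ± 3.93, 16.6 ± 2.72 and 6.11 ± 1.06 TPM (m3 minus m2 -1.31 ± 0.22, F test adjusted p = 0.0115), the same order of sets as Igfbp1. Eif4ebp1, a translation repressor that mTOR phosphorylates, had 24.1 ± 6.32, 14.8 ± 1.53 and 12.1 ± 2.34 TPM (F test adjusted p = 0.0179). Igfals, which holds IGFs and Igfbp3 in a complex in plasma, had 14.0 ± 2.51, 8.14 ± 1.19 and 7.27 ± 1.43 TPM (F test adjusted p = 0.0141). Mtor had 55.9 ± 11.8, 71.7 ± 18.7 and 108.5 ± 15.5 TPM (m3 minus m1 0.96 ± 0.18, F test adjusted p = 0.0291), and Angptl7, which overlaps it on the opposite strand, averaged 7.82, 13.9 and 24.5 TPM in the same sets. All 5 calls were lost with no filter on low values, at adjusted p from 0.0528 for Igfals to 0.122 for Mtor. Leaving out 1 library ended the call of Eif4ebp1 without m3 number 1 (0.0528), of G6pc without m3 number 1, 2 or 3 (0.0703, 0.0668 and 0.0656), and of Mtor without m1 number 2, 3 or 4 (0.0599, 0.067 and 0.0683) or m3 number 1, 2 or 3 (0.108, 0.0848 and 0.0675).

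By replicate number, G6pc was the pathway gene that passed, 1 of 42, or 2.38%, a share near the 2.71% of all genes. It had 389, 356, 400 and 637 TPM in m1, 212, 232, 332 and 423 TPM in m2, and 121, 120.3, 121 and 256 TPM in m3. Number 4 was the highest in each set, as for Igfbp4, and exceeded the rest by 0.85 ± 0.10 (limma F test over the numbers, adjusted p = 0.0102). The call was lost with no filter on low values (adjusted p = 0.117) and with no set term (adjusted p = 0.639).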

How the data were processed

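The authors deposited 1 table of TPM values with 47069 genes and 15 libraries, whose columns were matched to samples by the description labels. Per the submitters' processing notes, STAR 2.5.1b and RSEM 1.2.31 were used with GRCm38.p5; the annotation release is not given in the sources used here. The 4 deposited columns of means and standard errors, also in TPM, were not used. Per the labels' protocols, polyA RNA was amplified with a SMART-Seq V4 low input kit, taken here as not marking strand.

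TPM keep no depth, so no counting interval is given. Differences were fitted on log2(TPM + 1) with limma 3.58.1 (lmFit, eBayes with a trend) in R 4.3.3, over genes whose mean reached 1 TPM, and p-values were adjusted by Benjamini-Hochberg and called under 0.05. Tubules were compared with kidney with the set as a correlated block (estimated correlation 0.0669), the sets by an F test over 12 tubules, and the replicate numbers by an F test with the set as a term. The fits were also run on simulated data, but the outcome is not given here, so no result rests on that. Pathway genes named were, per comparison and direction, up to 5 past the threshold with the largest differences and, except for the numbers, groups (the highest and the lowest set) that did not overlap. Mtor between tubules and kidney, Igf2r, Igfbp2, Igfbp6 and Pck1 were named outside this rule after their values were seen. The 10 members are always named, and genes most like a member were the 3 with the smallest mean absolute difference in centred log2 values. Figures and summaries used Python 3.11.15, pandas 2.3.3 and matplotlib 3.10.9.

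The members, the pathway list and the marker lists were chosen with earlier results of these data known, so a pattern already seen gives no independent support. Alternatives were a pseudocount of 0.1, other filters, median-of-ratios and quantile scaling, mitochondrial genes left out, robust empirical Bayes, the replicate block, other treatments of the set, and each library left out. Loci are from GENCODE M21 and promoters from RefSeq, which held 9 of the 10 members and not Insr.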

Additional observations from a re-analysis of the deposited data

Results flagged for a closer look

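Within groups of 4 libraries, 12 of 78 checks found 1 library far from the other libraries of its set by Dixon's gap criterion, where chance gives about 1 in 20. Igfbp4 was high at number 4 in set m1 (627 TPM, next 379) and in set m3 (508 TPM, next 259). In the same 2 libraries G6pc was high, at 637 TPM (next 400) in m1 and 256 TPM (next 121) in m3. The sum of the S2 transporters was high at number 4 of m3, at 1024 TPM (next 446). Insr was low at number 3 of m1, at 16.37 TPM, where the other 3 libraries began at 24.34 TPM. Grb14 was high at number 3 of m3 (2.80 TPM, next 0.53), the library whose thick ascending limb markers summed to 1441 TPM (next 17.1). That marker sum was also high at number 4 of m1, at 55.8 TPM (next 10.6). The values of Irs1 and Insrr near the lowest step of the table met the criterion as well, with Irs1 at 0.03 TPM in number 3 of m1 (next 0.01) and at 0.01 TPM in number 2 of m2 (next 0.02), and Insrr at 0.01 TPM in number 3 of m1, where the other libraries of that set were listed at 0.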

How the results depend on the processing

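Between tubules and kidney, 6161 genes were called as deposited, 9399 with no filter and 3113 where the mean had to reach 10 TPM. In that fit 15 pathway genes and 3 members were called, in place of 31 and 5, and 18 pathway genes under quantile normalization. The share of calls higher in tubules was 18.9%, but 31.6% for means from 10 TPM up, 50.5% after median-of-ratios rescaling and 64.4% after quantile normalization. Igf1r reversed to 0.03 under quantile normalization. Leaving out 1 library gave 4761 to 6712 genes, 26 to 34 pathway genes and 5 to 6 members.

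Among the sets, 341 genes were called, and 196 genes and 0 pathway genes by limma with no filter, where 9 pathway genes had an unadjusted p under 0.05. Leaving out 1 library gave 197 to 563 genes and 2 to 5 pathway genes, with 3 members called each time. The count was 563 without m1 number 1, 220 without m2 number 2, and 197, 226 and 209 without m3 number 1, 2 and 3, which also left 2, 3 and 3 pathway genes.

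By replicate number, 306 genes, 1 pathway gene and 1 member were called. With no filter limma called 0, 0 and 0 (unadjusted p under 0.05: 2871, 14 and 3), and with no set term 0, 0 and 0 (1419, 7 and 2). For means from 10 TPM up, and with robust empirical Bayes, 2 members were called, Igfbp4 and Igfbp7. Leaving out 1 library gave 75 to 507 genes, 1 to 4 pathway genes and 1 member: 151 and 75 genes without m1 number 1 and 4, 108, 507 and 153 without m2 number 1, 2 and 4, and 182, 201 and 110 without m3 number 1, 2 and 4. Pathway genes came to 2 without m1 number 2 and 4 without m2 number 2.

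The replicate number as a block raised the calls among sets from 341 to 888, with 340 in both, and added Igfbp4 to the members; between tubules and kidney it gave 6292. Libraries share only a number. Over 12 same-number pairs the mean correlation of deviations was 0.143 (lowest 0.025, with 7 pairs above 0.1), against -0.0481 over 36 other pairs. Deviations were taken from set means and cancel within a set. This ties the mean over the other pairs to that over the same-number pairs, so it is no separate reference. Of the 12 tubule libraries, 8 correlated best with both others of their own number, and the rest did not. TPM keep no depth, so low values such as those of Irs1 have no stated precision.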

Other observations

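Genes whose levels followed a member most closely over the 12 tubules were taken from 11299 genes by the mean absolute difference in centred log2(TPM + 1), as a description with no test. Nearest to Irs2 were Tstd2 (0.29), with set means of 16.8, 31.3 and 46.8 TPM in m1, m2 and m3, Kif20b (0.35), a mitotic kinesin, with 6.25, 13.9 and 18.0 TPM, and Gm21967 (0.35). Nearest to Igfbp1 was Angptl4 (0.17), a secreted inhibitor of lipoprotein lipase, with 132.5, 182 and 54.4 TPM. It was followed by the clock transcription factor Arntl (0.25), with 6.71, 7.82 and 2.29 TPM, and the arrestin-domain gene Arrdc3 (0.32), with 59.8, 105.7 and 32.4 TPM. Nearest to Igfbp3 were Gm20492 (0.20), the antigen-presentation gene H2-Eb1 (0.21) and the sulfotransferase Sult1a1 (0.23). H2-Eb1 averaged 9.08, 10.4 and 10.4 TPM in the sets and 94.1 TPM in kidney.

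In whole kidney, G6pc and Irs2 had opposite orders over the 3 libraries: G6pc had 590, 299.7 and 241 TPM where Irs2 had 6.53, 19.70 and 36.08 TPM. With 3 libraries this is given as values only.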
